A study of Mus musculus with 2 samples.

Results

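The Hox genes were taken from a table of FPKM (fragments per kilobase of transcript, normalized to library size) made from the RNA of 2 cell populations of the newborn mouse tongue. Members were all entries named Hoxa, Hoxb, Hoxc or Hoxd with a number, which gave 39 of 21628 entries: 11 in the HoxA cluster, 10 in HoxB, 9 in HoxC and 9 in HoxD. The cells came from the lingual epithelium of P0 (newborn) pups of genotype Sox2GFP, in which green fluorescent protein reports the transcription factor SOX2. Tissue was pooled across pups, dissociated and sorted by reporter brightness into GFP-high cells (the study places the brightest reporter in taste buds and the cells around them) and GFP-low cells. Each population gave 1 library by the labels, although the FPKM columns bear the name of a mean. They were taken as single libraries, on which the read numbers and intervals below depend, so the differences below have no replicate check and come without p-values. Both populations carry the reporter allele, and the groups differ in how bright that reporter was.

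Hox genes encode homeodomain transcription factors and lie in 4 clusters, in which the order of the genes follows the order of their expression domains from head to tail. Genes at the same position in different clusters are paralogs and share a number, with low numbers at the 3′ end expressed farthest forward and high numbers at the 5′ end farthest back. The front of the head, including the first branchial arch, which contributes to the front of the tongue, forms without Hox expression, whereas Hoxc13 also has a known role away from the body axis, in hair follicles and in the filiform papillae of the tongue.

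The 4 members of paralog group 13 differ in the part of the sequence that is most alike between Hox genes. The homeobox, which encodes the DNA-binding homeodomain, is shown for each of them, because single-end reads of 50 nt had to be assigned to 1 of these genes. Sequences were read from the GENCODE M21 transcripts on GRCm38 (mm10), each lies in the last exon of its gene, and capitals mark the bases that differ from Hoxc13. Hoxc13 is at chr15:102927210-102927389 (plus strand), Hoxa13 at chr6:52258928-52259107 (minus strand), Hoxb13 at chr11:96196020-96196199 (plus strand) and Hoxd13 at chr2:74669930-74670109 (plus strand).
Hoxc13: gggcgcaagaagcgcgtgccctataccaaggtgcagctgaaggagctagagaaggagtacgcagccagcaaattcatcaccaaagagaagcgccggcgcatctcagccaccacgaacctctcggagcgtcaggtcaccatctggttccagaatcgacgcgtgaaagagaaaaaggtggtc
Hoxa13: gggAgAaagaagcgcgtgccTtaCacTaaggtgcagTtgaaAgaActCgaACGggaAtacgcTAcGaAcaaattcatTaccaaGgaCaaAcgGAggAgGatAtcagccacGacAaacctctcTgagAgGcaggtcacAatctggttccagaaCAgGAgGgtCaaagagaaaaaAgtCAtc
Hoxb13: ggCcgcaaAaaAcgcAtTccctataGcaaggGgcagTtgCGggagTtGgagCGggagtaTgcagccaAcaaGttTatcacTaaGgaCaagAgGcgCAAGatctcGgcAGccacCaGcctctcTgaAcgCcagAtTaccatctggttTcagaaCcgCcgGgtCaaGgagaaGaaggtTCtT
Hoxd13: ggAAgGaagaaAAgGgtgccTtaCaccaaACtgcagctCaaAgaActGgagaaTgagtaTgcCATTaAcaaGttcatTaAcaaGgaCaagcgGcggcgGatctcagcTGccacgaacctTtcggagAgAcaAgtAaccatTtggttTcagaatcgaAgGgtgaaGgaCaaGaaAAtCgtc
Over these 180 bases, which encode 60 amino acids, Hoxa13 was identical to Hoxc13 at 77.2%, Hoxd13 at 75% and Hoxb13 at 73.9%. In the other members the identity was 47.8% to 64.4%, with a median of 54.4%. The longest run of bases that any other member shared with the Hoxc13 homeobox, at any offset, was 17, well short of a read. Over the whole transcript, none of the 2412 windows of 50 nt of Hoxc13 occurred in a transcript of another gene. The same held at other loci for 31 of the 39 members, and the largest share at another locus was 1.44%, for Hoxc9.

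The Hox gene with the highest level in both populations was Hoxc13, the 5′ terminal gene of the HoxC cluster, and it was higher in the GFP-low population. It was at 1.93 FPKM in the GFP-high population and 13.83 FPKM in the GFP-low population, a 7.17-fold difference. No other member reached 1 FPKM in either library. Hoxc13 accounted for 52.9% of the summed Hox FPKM in the GFP-high population and 83.3% in the GFP-low population. In bulk samples, fewer cells of a type and less RNA per cell cannot be told apart. In the population with more Hoxc13, 5 of 7 fibroblast markers and 5 of 7 Schwann lineage markers were also called higher, and their part in the result was not tested.

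**Figure D1:**
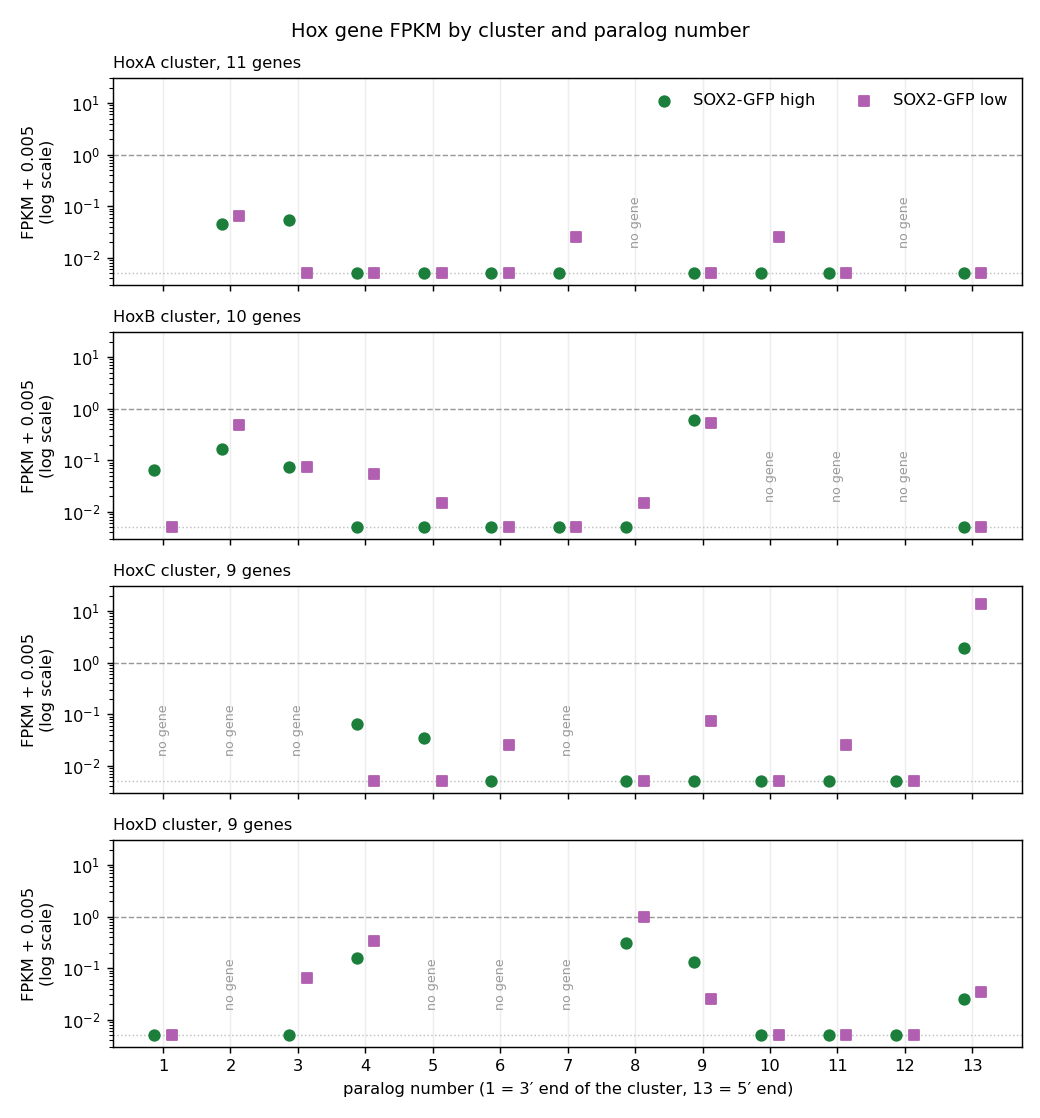
FPKM of 38 Hox genes on a log axis, with 0.005 added so that entries listed at 0 can be drawn, by cluster and paralog number; circles are GFP-high and squares GFP-low cells, 1 library each. The dashed line marks 1 FPKM and the dotted line 0, and Hoxc13, at 1.93 and 13.83 FPKM, lies above the dashed line in both libraries.

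The depth behind these values sets what can be seen. From the steps between low FPKM values, the depth was estimated at 27250000 reads for GFP-high and 32000000 for GFP-low cells, for which 35750000 gave nearly as good a match. These depths are approximate, since 59.9% and 62% of the low values examined lay near a whole number of reads. At them, 3 reads corresponded to 0.0404 to 0.21 FPKM in the GFP-high population and to 0.0344 to 0.179 FPKM in the GFP-low population, depending on the transcript length of the member. Since deposited FPKM are rounded, read numbers were rounded to whole reads, and a member was counted as above the floor at 4 reads or more. Intervals and floors cover counting error only.

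Of the 39 members, 16 were listed at 0 in both libraries, which is 41% of them, against 19.9% of the 21590 entries with a number in both. A listed 0 is read here as not detectable at this depth, not as absence of the transcript. Only 1 of 39 (2.56%) reached 1 FPKM in either library, against 59.9% of all entries. The members listed at 0 in both were Hoxa4, Hoxa5, Hoxa6, Hoxa9, Hoxa11, Hoxa13, Hoxb6, Hoxb7, Hoxb13, Hoxc8, Hoxc10, Hoxc12, Hoxd1, Hoxd10, Hoxd11 and Hoxd12. A further 14 were above 0 but not above the floor in either library, at up to 0.06 FPKM in the GFP-high population and up to 0.07 FPKM in the GFP-low population. The highest of them were Hoxb1 and Hoxc4, each at 0.06 FPKM in the GFP-high population, and Hoxc9, at 0.07 FPKM in the GFP-low population. This left 9 members above the floor in at least 1 library, 6 in the GFP-high and 8 in the GFP-low population, and 5 of these in both. With reads left unrounded, which was tried after seeing the data, 12 members were above 3 reads in at least 1 library, 9 in each, because Hoxa2, Hoxb1 and Hoxc4 lay just over 3 reads.

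Enrichment in a population was called at 5 FPKM or more in that population and a ratio of at least 1.5. By this rule, 1 of 39 Hox genes, Hoxc13, was called higher in the GFP-low population, where 4.44% of all entries were called (958 of 21590). None of the 39 was called higher in the GFP-high population, where 4.72% of entries were called (1020 of 21590). Hoxc13 was also the only member at 5 FPKM or more in either library. Among the 10760 entries that reached 5 FPKM, 8.9% were called higher in the GFP-low population and 9.48% in the GFP-high population. With each library scaled to its FPKM sum (TPM), the rule called 1219 entries higher in GFP-low and 807 in the GFP-high population, and the member counts were the same. Hoxc13 was 1 of 99 among the 958 entries called in the GFP-low population with a ratio of at least 7.17 and a value above 0 in the GFP-high population.

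The Hoxc13 gene (ENSMUSG00000001655) spans chr15:102921103-102928814 on the plus strand and has 1 annotated coding transcript of 2461 nt. Its values rested on about 119 reads in the GFP-high population and about 1001 reads in the GFP-low population. The 95% interval of the ratio of GFP-low to GFP-high was 5.92 to 8.74 for counting error. Exact Poisson intervals on the FPKM were 1.6 to 2.31 in the GFP-high and 13 to 14.7 in the GFP-low population and did not overlap. Hoxc13 was higher than 46% of all entries in the GFP-high population and higher than 62.1% in the GFP-low population. In GFP-low cells it was 14.3 times the next member, Hoxd8, and in the GFP-high population it was 3.27 times the next member, Hoxb9. No exon of another annotated gene overlaps those of Hoxc13, so its reads could not be shared with a neighbor or an antisense transcript in this annotation.

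**Figure D2:**
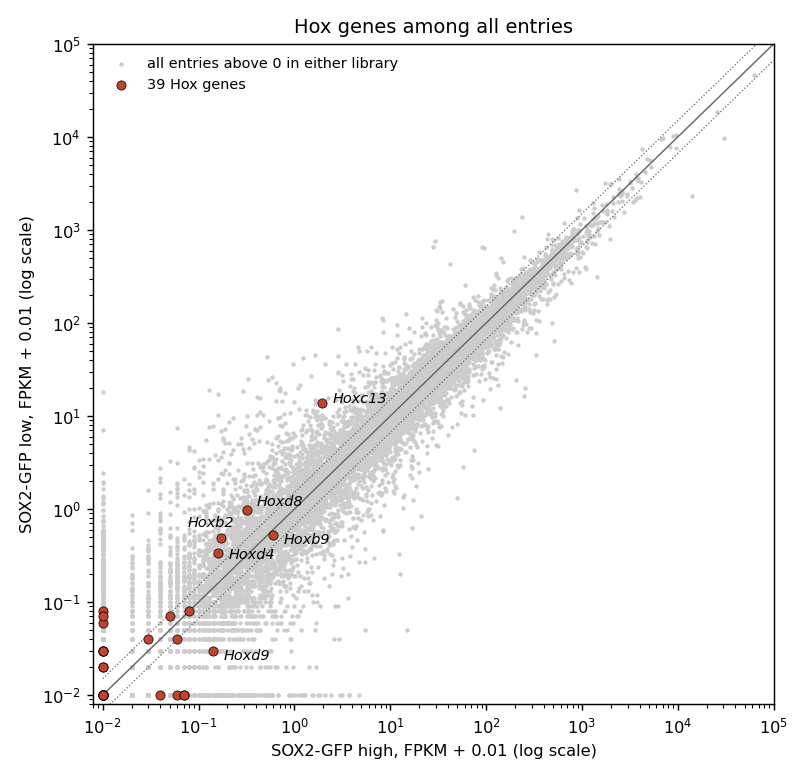
FPKM plus 0.01 in GFP-high (x axis) and GFP-low cells (y axis), both on log axes, for entries above 0 in at least 1 library (gray) and the 39 Hox genes (red); the solid line marks equality and the dotted lines a ratio of 1.5. Hoxc13 lies apart from the other members, which are all below 1 FPKM in both libraries.

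The remaining members above the floor are described here because their values were seen to be highest, and none meets the rule for naming single genes. Hoxd8, a gene of the middle of its cluster that patterns the trunk, was at 0.31 FPKM in the GFP-high and 0.97 FPKM in the GFP-low population. Its ratio was 3.13, with a counting interval of 1.68 to 6.33, on about 13 and 48 reads. Hoxb2, an anterior gene known for its expression in the hindbrain and second branchial arch, was at 0.16 and 0.48 FPKM, on about 6 and 22 reads. The Hoxb2 ratio was 3, with a counting interval of 1.23 to 9.41. Both intervals lay above 1, but at levels at which few reads decide the value. Since Hoxd8 and Hoxb2 were picked by these same values, the intervals describe them and are no test of a difference.

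Hoxb9, a posterior gene, was the only other member above 0.5 FPKM in both libraries. It was at 0.59 FPKM in the GFP-high population and 0.51 FPKM in the GFP-low population, on about 36 reads each. The ratio of GFP-low to GFP-high was 0.864, and its interval of 0.521 to 1.39 includes equality, so no difference was detectable at this depth. In GFP-high cells the order of levels was Hoxc13, Hoxb9, Hoxd8, Hoxb2, Hoxd4 and Hoxd9. The intervals of Hoxb9 (0.417 to 0.823 FPKM) and Hoxd8 (0.163 to 0.524 FPKM) overlap, as do those of each later neighbor in that order. In GFP-low cells the order was Hoxc13, Hoxd8, Hoxb9, Hoxb2, Hoxd4, Hoxb3, Hoxd3 and Hoxb4. There, the intervals of Hoxd8 (0.71 to 1.28 FPKM) and Hoxb9 (0.355 to 0.701 FPKM) met without overlap, and that of Hoxb9 overlaps that of Hoxb2 (0.302 to 0.729 FPKM). The interval of Hoxc13 lay above that of the next member in both libraries.

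Hoxd4, a paralog expressed up to the hindbrain, was at 0.15 FPKM in the GFP-high and 0.33 FPKM in the GFP-low population. Its ratio was 2.2, and the interval of 0.845 to 5.34 includes equality. Its value is uncertain, because 46.8% of its 50-nt windows also occur in transcripts that overlap it, those of Hoxd3, Gm28230 and the antisense gene Hoxd3os1. Hoxd9, a posterior gene, went the other way, at 0.13 FPKM in the GFP-high population on about 7 reads and 0.02 FPKM in the GFP-low population on about 1 read. Its ratio of GFP-low to GFP-high was 0.154, with an interval from 0.0027 to 0.947. Hoxd9 was above the floor only in the GFP-high population, where it was higher, so this interval is no test of a difference. Hoxb3, Hoxb4 and Hoxd3 were above the floor in the GFP-low population alone, at 0.07, 0.05 and 0.06 FPKM on about 4 reads each. Hoxb3 was at 0.07 FPKM on about 3 reads in the GFP-high population, and Hoxb4 and Hoxd3 were listed at 0 there, so no fold is given. Overlap with other genes also touches Hoxb2, Hoxb3 and Hoxd3, of whose windows 25.9%, 51.4% and 60.3% are found in overlapping transcripts. The labels call the libraries stranded, but the strand setting of the counting is not given in the sources used here. Reads from a gene and its antisense partner may therefore have been counted together.

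By cluster, HoxA had 0 of 11, HoxB 4 of 10 (Hoxb2, Hoxb3, Hoxb4 and Hoxb9), HoxC 1 of 9 (Hoxc13) and HoxD 4 of 9 (Hoxd3, Hoxd4, Hoxd8 and Hoxd9) above the floor. With reads left unrounded, the counts were 1, 5, 2 and 4. The summed FPKM of HoxA was 0.14 in the GFP-high and 0.13 in the GFP-low population. HoxB summed to 0.88 and 1.13 FPKM and HoxD to 0.61 and 1.41 FPKM. HoxC had the highest sums, 2.02 and 13.94 FPKM, and without Hoxc13 the lowest, 0.09 and 0.11 FPKM. That last ranking sets HoxC without its top gene against clusters that kept theirs. The sums of HoxA and of the other 8 HoxC genes rest on members at about 3 reads or fewer, so their order is not resolved.

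Along the axis that the paralog numbers represent, the summed levels were highest in the posterior class, where 1 gene set the sum. The anterior members (groups 1 to 3) summed to 0.43 FPKM in the GFP-high and 0.7 FPKM in the GFP-low population, with 3 of 8 above the floor. Central members (groups 4 to 8) summed to 0.55 and 1.41 FPKM, with 3 of 15 above the floor. Posterior members (groups 9 to 13) summed to 2.67 and 14.5 FPKM, with 3 of 16 above the floor, and without Hoxc13 to 0.74 and 0.67 FPKM. With reads left unrounded, 5 anterior, 4 central and 3 posterior members were above the floor. Groups 1, 5, 6, 7, 10, 11 and 12 had no member above the floor (Hoxb1, of group 1, was at about 3 reads in the GFP-high population), and both members of group 12 were listed at 0 in both libraries. Within group 13, Hoxd13 was at 0.02 and 0.03 FPKM, and Hoxa13 and Hoxb13 were listed at 0. Paralogs of the same number therefore did not share the level of Hoxc13.

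Over the 23 members above 0 in at least 1 library, 15 were higher in the GFP-low population, 7 were higher in the GFP-high population and 1 was equal. Of these 23, 14 had reads at or under the floor in both libraries. Among all 17283 entries above 0, 9254 were higher in the GFP-low population, 7883 in the GFP-high population and 146 were equal. The median difference of the 23 members in log2(FPKM + 1), GFP-high minus GFP-low, was -0.03, against -0.02 over all 17283 entries above 0. This scale understates the change of low values. Since all members but Hoxc13 were below 1 FPKM, their median was bound to be small on this scale. Its closeness to that of all entries is therefore not informative. Hoxc13 lay apart from it at -2.34.

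Position in the cluster was compared with level in HoxC, where Hoxc13 is the first gene from the 5′ end. Hoxc12 begins 7.94 kb past the end of Hoxc13 and was listed at 0 in both libraries. Hoxc11, 25.6 kb past it, was at 0 and 0.02 FPKM. On the other side the nearest gene in the table was Calcoco1, a coactivator and autophagy receptor, 199 kb away, at 57 FPKM in the GFP-high and 67.1 FPKM in the GFP-low population. At the 3′ end of the cluster, 116 kb from Hoxc4, the DNA repair gene Smug1 was at 10.6 and 12.1 FPKM. The ratio of GFP-low to GFP-high was 1.18 for Calcoco1 and 1.14 for Smug1, so neither flanking gene reached the ratio of 1.5.

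**Figure D3:**
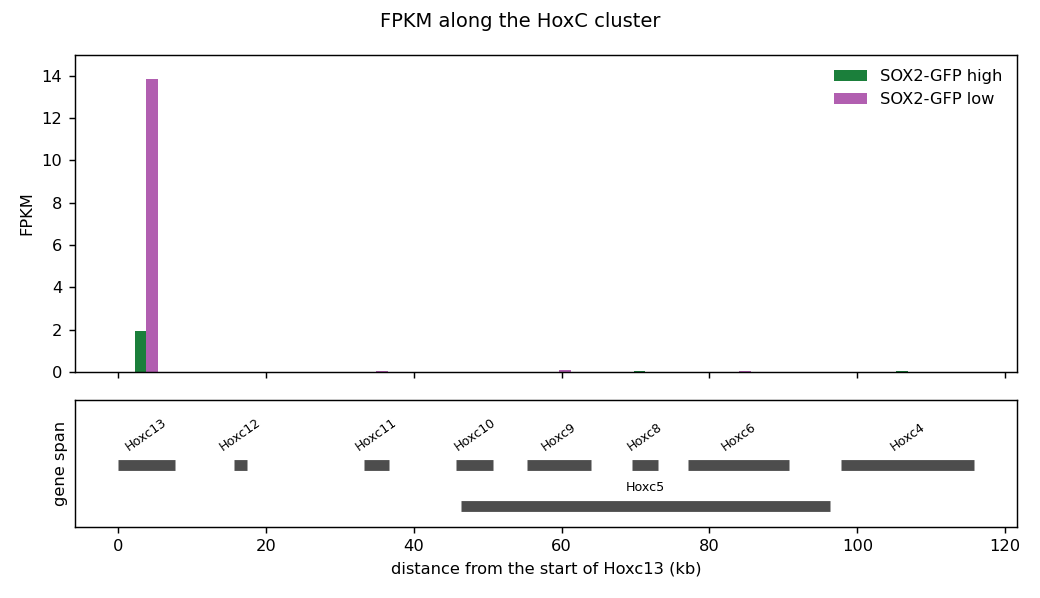
Top, FPKM of each gene of the HoxC cluster in GFP-high (green) and GFP-low cells (purple), placed at the middle of the gene; bottom, the annotated gene spans, both against the distance in kb from the start of Hoxc13. Bars are visible at Hoxc13 alone, since the other 8 genes are at 0.07 FPKM or less.

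Around the other clusters, flanking levels ranged widely. HoxA lies between Skap2 (4.53 FPKM in the GFP-high and 4.99 in the GFP-low population) and the homeobox gene Evx1, listed at 0 in both. HoxD lies between Evx2, at 0.03 FPKM in the GFP-high population and listed at 0 in the GFP-low population, and the mitochondrial gene Mtx2, at 111 and 105 FPKM. Ttll6, which encodes a tubulin glutamylase and lies 28.9 kb beyond Hoxb13, was at 0.07 and 1.84 FPKM, while Skap1, on the Hoxb1 side, was at 0.04 and 0.03 FPKM. Levels next to the clusters thus ran from 0 at Evx1 to 111 FPKM at Mtx2, beside Hox genes of which all but Hoxc13 were under 1 FPKM.

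Factors that act with or on Hox genes were taken from lists. TALE homeodomain proteins bind DNA together with Hox proteins. All 9 of their genes were at 1 FPKM or more in at least 1 library, against 59.9% of all entries. Meis1 (116 and 72.2 FPKM in the GFP-high and GFP-low cells) and Meis2 (250 and 107 FPKM) were called higher in the GFP-high population. Pbx4 (3.8 and 8.74 FPKM) was called higher in the GFP-low population, where Hoxc13 was higher. Pknox2 had the most uneven ratio, at 0.23 and 1.62 FPKM, below the minimum. The other 8 TALE genes reached 5 FPKM in at least 1 population, which among Hox genes Hoxc13 alone did. The median difference of the list in log2(FPKM + 1), GFP-high minus GFP-low, was 0.11.

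Activators of Hox clusters in the embryo showed a split between classes. The Cdx genes, which activate central and posterior Hox genes, were all at or near 0: Cdx1 and Cdx2 were listed at 0 in both libraries and Cdx4 was at 0.02 FPKM in the GFP-high and 0 in the GFP-low population. Retinoic acid receptors, by contrast, were well expressed, with Rarg highest of the list at 256 FPKM in both populations. Of the 9 genes, Egr2 (61.3 and 24.3 FPKM) and Rarb (17 and 2.76 FPKM) were called higher in the GFP-high population and none in the GFP-low population. The median difference of the list was 0.03.

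Polycomb proteins keep Hox clusters silent and trithorax proteins keep them active. All 18 Polycomb genes and all 10 trithorax genes were at 5 FPKM or more in both libraries. Of the Polycomb genes, none was called higher in the GFP-high and 1, Pcgf2 (82.2 and 126 FPKM), higher in the GFP-low population. That call, at a ratio of 1.53, fell to 1.49 when GFP-low was scaled by the median ratio, and on the TPM scale Cbx7 was called too. Rbbp4 was the highest of the list in both libraries, at 130 and 143 FPKM. Kmt2a, which encodes the MLL1 methyltransferase that maintains Hox expression, was the 1 trithorax gene called, higher in the GFP-low population at 19.9 and 31.3 FPKM, and Dpy30 was the highest in the GFP-high population at 104 FPKM. The median difference was -0.14 for the Polycomb and -0.08 for the trithorax genes. The TPM scale moves every log2 ratio of GFP-high to GFP-low by -0.1, in the same direction as these medians, so their size depends on the scale. Every measured gene of both classes was above every Hox gene but Hoxc13, the lowest being Phf19 at 9.06 and 7.76 FPKM.

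Homeobox genes of the first branchial arch and the paired-box gene Pax9 were set beside the Hox genes. The genes of this list pattern a region formed without Hox expression. Of 15, 11 (73.3%) were at 1 FPKM or more in at least 1 library, against 59.9% of all entries and 1 of 39 Hox genes. Pitx1 was the highest in the GFP-high population at 320 FPKM and was at 289 FPKM in the GFP-low population. Of these genes, 6 (40%) were called higher in the GFP-low population, against 4.44% of all entries. They were Dlx2, Dlx3, Dlx5, Lhx6, Msx2 and Pax9, and Hoxc13 was called in the same direction. Pax9, which filiform papillae need, was at 120 and 254 FPKM. The ratio of GFP-low to GFP-high ran from 0.898 for Barx1 to 14.5 for Dlx6, both below 1 FPKM. None was called higher in the GFP-high population, and the median difference in log2(FPKM + 1) was -0.48.

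Hair keratins, some of which are known targets of HOXC13 in hair and are also made in filiform papillae, differed in the same direction as Hoxc13. Krt84 was at 29.1 FPKM in the GFP-high and 769 FPKM in the GFP-low population, Krt36 at 28.1 and 657 FPKM and Krt35 at 8.34 and 109 FPKM. With Krt31 (4.58 and 7.3 FPKM), these 4 of the 9 measured genes of the list were called higher in the GFP-low population, against 4.44% of all entries. None was called higher in the GFP-high population. All 9 had higher FPKM in the GFP-low population, with ratios of GFP-low to GFP-high from 1.09 for Krt32 to 26.4 for Krt84. Foxn1, a transcription factor of the hair follicle that acts after Hoxc13, was at 19.6 and 26.4 FPKM, a ratio of 1.35. The median difference of the list was -0.8, and Krt85, also on it, was not analysed here. The ratio of Hoxc13, 7.17, was below those of Krt84, Krt36, Krt35 and Krt86 (0.11 and 1.1 FPKM). It was above those of the other measured genes of the list, Foxn1, Krt31, Krt32, Krt34 and Krt82.

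**Figure D4:**
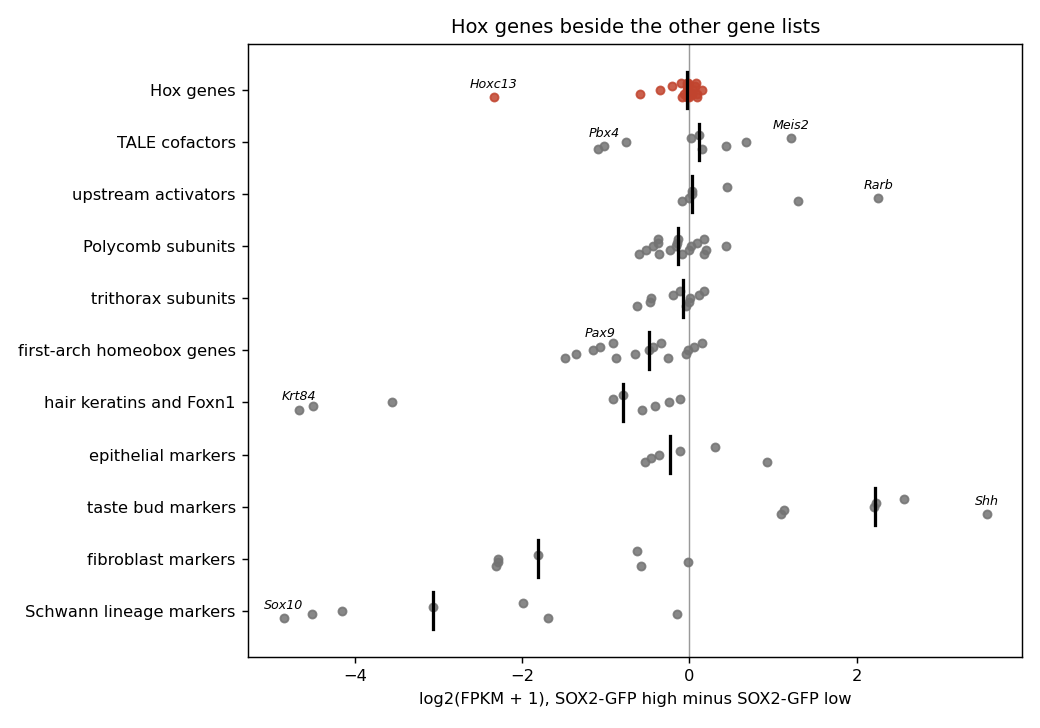
Difference in log2(FPKM + 1), GFP-high minus GFP-low, of each gene above 0 in at least 1 library (points) and the list median (black bars), for the Hox genes and 10 other lists. Most Hox genes lie at 0 with Hoxc13 apart on the GFP-low side, where the hair keratins, fibroblast markers and Schwann lineage markers also lie.

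Of the cell type markers, the taste bud, fibroblast and Schwann lineage lists held most of the calls. Over all entries, 4.72% were called higher in the GFP-high and 4.44% in the GFP-low population. Epithelial markers were high in both, with Krt5 at 9667 and 10422 FPKM and Krt14 at 6672 and 9635 FPKM, as the label of the tissue states. Of 6, Epcam was called higher in the GFP-high population, and on the TPM scale Krt14 was called higher in the other. All 6 taste bud markers were called higher in the GFP-high population, where Hoxc13 was lower, and their sum was 226 FPKM against 82.8 FPKM in the GFP-low population. Fibroblast markers were called higher in the GFP-low population in 5 of 7, with sums of 410 and 1818 FPKM and Col3a1 at 193 and 966 FPKM. Schwann lineage markers were called there in 5 of 7, with sums of 75.2 and 283 FPKM and Sox10 at 0.51 and 42.7 FPKM. No gene of these lists was listed at 0 in either library. Skeletal muscle markers (sums of 17.2 and 19.4 FPKM), endothelial markers (30.5 and 22.7 FPKM), leukocyte markers (15.6 and 18.1 FPKM), neuron markers (0.92 and 1.64 FPKM) and melanocyte markers (1.32 and 1.79 FPKM) had lower sums. Among these, Pecam1 alone was called, higher in the GFP-high population though not on the TPM scale, and the defining melanocyte gene Tyr was listed at 0 in both libraries. Whether such cells account for any of the higher Hoxd8 and Hoxb2 of GFP-low cells was not tested.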

How the data were processed

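RNA of 1 library of GFP-high and 1 of GFP-low cells was analyzed. According to the submitters' processing notes, reads were trimmed with Trimmomatic 0.36, mapped to mm10 with GSNAP and quantified with Cufflinks 2.2.1. The authors deposited FPKM rounded to 2 decimals, normalized to transcript length and mapped fragments. FPKM cannot be turned back into exact reads and does not show how reads that map to several genes were counted. A further deposited column holds the fold between the populations as the authors computed it and was not used.

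The members and the 15 gene lists were chosen with earlier results of these data known. Entries that GENCODE M21 types as other than protein-coding (21) or without a number in a library (17) were left out, which left 21590. A gene was called at 5 FPKM or more in the higher population and a ratio of at least 1.5, with no test, since there is 1 library per population. Values are given singly for members at 1 FPKM or more in either library or called, and from the lists for genes called, the highest in each library, the extremes of the ratio and the nearest listed gene on each side of each cluster. All other single names were picked with the values in view. Values of some genes are not reported here.

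Depth was estimated from FPKM of 0.6 or less of genes with 1 transcript of 400 to 1300 nt, less a fragment length of 200 nt, counting products within 0.15 of a whole read. Read numbers of members are FPKM times length and depth, and ratio intervals are exact Clopper-Pearson at 95%. The sample labels state a larger number of sequenced reads than this estimate. Alternatives were other FPKM minimums, a ratio of 2, pseudocounts of 1 and 0.1, TPM and scaling by the median ratio. Python 3.11.15, NumPy 2.4.6, pandas 2.3.3, SciPy 1.17.1 and matplotlib 3.10.9 were used.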

Additional observations from a re-analysis of the deposited data

How the results depend on the processing

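Without an FPKM minimum, 2 Hox genes were higher in GFP-high cells (against 0) and 6 in GFP-low cells (against 1), that is 5.13% and 15.4% of members beside 11.8% and 11.5% of all entries, most of the members on a few reads. With 5 FPKM required in each population, 0 were called in GFP-low cells (2.93% of all entries), since Hoxc13 was at 1.93 FPKM in GFP-high cells. At 0.5 FPKM in either library, 3 members were counted instead of 1. The median log2 difference, -0.03, was -0.19 with a pseudocount of 0.1 and -2.34 over members whose mean was 1 FPKM or more, which leaves Hoxc13 alone. The other 18 results of these comparisons under an alternative kept their value within 1.5 times or 0.1 on the log2 scale. No result reversed. The TPM scale moves every log2 ratio of GFP-high to GFP-low by -0.1. The Hoxc13 ratio was 7.68 on the TPM scale, 6.97 with the median ratio and 5.06 with a pseudocount of 1. With a pseudocount of 1, the ratios of Hoxd8, Hoxb2 and Hoxd4 were 1.5, 1.28 and 1.16. No paired analysis was possible because there is 1 library per population. Without replicates, the spread between animals or libraries is unknown, and differences below 1 FPKM rest on a few reads.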
